A study of Nicotiana tabacum with 16 samples.

Results

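Roots of tobacco (Nicotiana tabacum, cultivar K326) carrying recessive alleles at Nic1, Nic2 and Myc2a were compared with roots carrying recessive alleles at Myc2a alone. The comparison asked how root expression differs when nic1 nic2 is present in a myc2a line, and it rests on 9 of the 16 RNA-seq libraries of the study, chosen by genotype label. There were 4 libraries of K326 nic1/nic2/myc2a and 5 of K326 myc2a. Both genotypes have the K326 background and are labelled myc2a. The other 7 libraries, 3 of K326 nic1/nic2 and 4 of K326, give the same allele difference without myc2a and share no library with this comparison. All plants were grown in greenhouse pots whose base stood in water and were topped at flowering, and roots were taken 18 h later. The series' title calls the genotypes nearly isogenic. The sources used here do not say how the alleles arose, whether each line descends from a single plant, or whether each library is a separate plant, so the p-values cover only the spread among these libraries, which may be technical.

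Tobacco makes nicotine in its roots, and removing the shoot apex raises its synthesis through jasmonate signalling. MYC2 proteins are bHLH transcription factors that act when jasmonate releases them from JAZ repressors. At Nic2 lie several clustered ERF genes, whose transcription factors act with MYC2 on the genes of nicotine synthesis and transport, and the nic1 and nic2 alleles are used in breeding for low alkaloid content. The deposited table gives each gene model an identifier such as Ntab19g031540-1.1, made of an ID group (19) and a serial (31540), and pairs none with a gene symbol. Which gene models are the ERF genes, MYC2a or the enzymes of nicotine synthesis was therefore not analysed here, and neither the genotype labels nor the tissue could be checked against known genes.

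Counts were tested for 43009 of 63697 gene models. Total counts per library lay between 32.7 M and 34.4 M in nic1 nic2 myc2a and between 35.4 M and 39.8 M in myc2a. Levels are given as CPM, the usual normalised count relative to the TMM-scaled depth of the library. A count of 3 corresponds to 0.0859 to 0.0905 CPM in a nic1 nic2 myc2a library and to 0.0774 to 0.0875 CPM in a myc2a library. The labels give 3 to 5 plants per genotype. Of the 9 libraries, myc2a replicate 5 was least like its group, with a mean Spearman correlation of 0.953 to the other myc2a libraries and 42797 detected gene models. The next lowest was myc2a replicate 1, with 0.962.

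At an adjusted p of 0.05 in edgeR's quasi-likelihood test, 154 gene models differed between nic1 nic2 myc2a and myc2a roots, 0.358% of those tested. Part of ID group 11, from Ntab11g013420-1.1 to Ntab11g026250-1.1 and called the stretch from here on, is described apart because 4 of the 5 myc2a libraries lie far below K326 there. Outside it, 46 gene models were higher in nic1 nic2 myc2a (0.109% of 42171) and 74 were lower (0.175%). Inside it, 33 of 838 were higher (3.94%) and 1 was lower (0.119%).

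These counts depended on single libraries, myc2a replicate 1 most of all. Without it, 280 gene models were called higher and 426 lower outside the stretch, and all 154 of the calls above were among those called. Without nic1 nic2 myc2a replicate 3 the outside counts were 64 higher and 244 lower. Without any other single library of either genotype, 24 to 37 were higher and 33 to 52 lower. Without nic1 nic2 replicate 3, which enters only the choice of gene models tested, the scaling and the estimate of the spread, 70 were higher and 87 lower. DESeq2 called 213 higher and 375 lower outside the stretch, and limma-voom with sample quality weights called 470 higher and 349 lower. Outside the stretch, 18 of the 46 rises and 24 of the 74 falls were called under each of the 28 alternatives.

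The 120 gene models called outside the stretch fell into patterns according to the other 2 genotypes. For each, the mean levels of nic1 nic2 and K326 were placed on the log2 scale between the myc2a and the nic1 nic2 myc2a mean. In 56 gene models nic1 nic2 lay nearer to nic1 nic2 myc2a and K326 nearer to myc2a, a pattern named follows nic1 nic2. In 38 both lay nearer to myc2a, so that nic1 nic2 myc2a stood apart. In 24 both lay nearer to nic1 nic2 myc2a, so that myc2a stood apart. The remaining 2 were crossed. When both genotypes had to lie within 0.25 of either end of the scale, 15, 16 and 16 gene models kept those 3 patterns. The other 73 of the 120 had a genotype further inside the scale or past one of its ends. K326 was past the myc2a end in Ntab21g008710-1.1, with means of 360 CPM in K326 and 121 CPM in myc2a. In 31 of the 36 falls that follow nic1 nic2, myc2a was below K326 (median log2 fold change -0.90), with 0 of the 36 called in that contrast. The patterns rest on group means and are not a test of nic1 nic2 against K326, or of nic1 nic2 myc2a against nic1 nic2. The contrast of nic1 nic2 with K326 was called for 31 of the 36 falls and 5 of the 20 rises that follow nic1 nic2. Where nic1 nic2 myc2a stood apart, its contrast with nic1 nic2 was called for some gene models (Ntab19g019580-1.1, edgeR adjusted p = 1.08e-10). It was not called for others (Ntab12g001960-1.1, edgeR adjusted p = 0.36). Both examples were chosen after their values were seen.

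**Figure D1:**
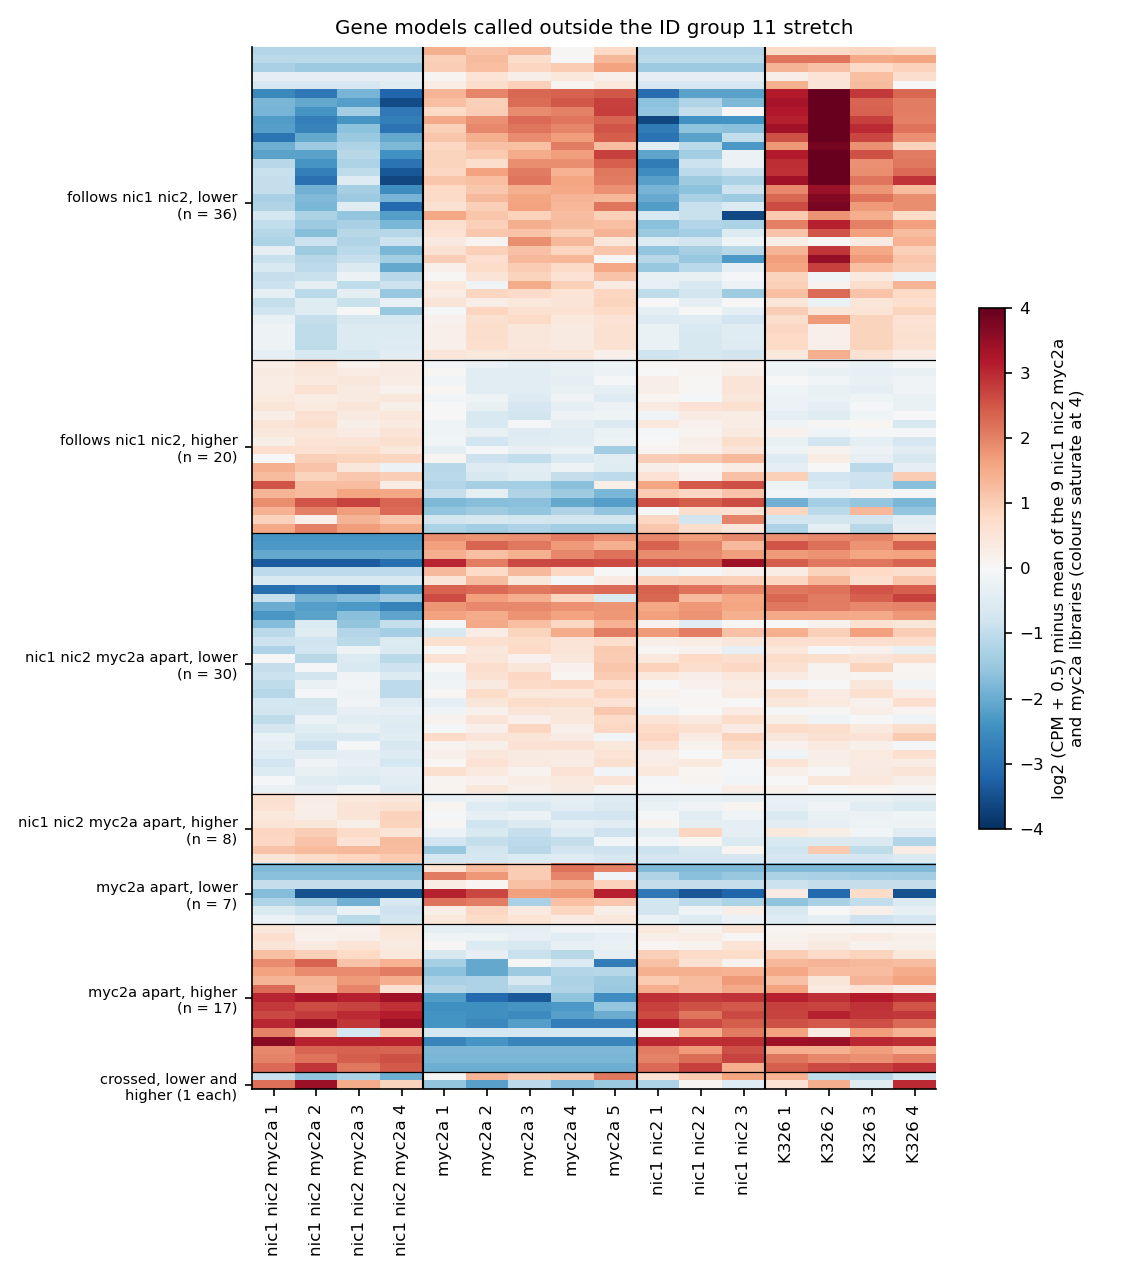
Level of the 120 gene models called outside the ID group 11 stretch (rows, grouped by pattern and direction) in the 16 libraries (columns). Colour is log2 (CPM + 0.5) minus the mean of the 9 nic1 nic2 myc2a and myc2a libraries. The rows that follow nic1 nic2 have like colours in nic1 nic2 myc2a and nic1 nic2, and K326 replicate 2 is darkest among the falls.

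The largest of these groups was the falls that follow nic1 nic2. There were 36 in 16 ID groups, 11 with a mean above 100 CPM in myc2a, and their median log2 fold change was -2.86 (-2.78 with the gene models absent from nic1 nic2 myc2a at their bound). No library of one genotype reached the range of the other in 35 of the 36, where 1.66% of gene models outside the stretch were lower without overlap and 1.99% higher. In root tissue, fewer cells of a type and less RNA per cell cannot be told apart. Their summed level was 1168, 782, 1023 and 842 CPM in nic1 nic2 myc2a replicates 1 to 4, against 2856, 3619, 4439, 3921 and 4364 CPM in myc2a replicates 1 to 5. The myc2a replicate 1 library was lowest of its group and still above every nic1 nic2 myc2a library. The sum was 972 ± 46.4 CPM in nic1 nic2 (SD, n = 3) and 8010 ± 5163 CPM in K326 (n = 4), which describes the pattern and does not test it, since the means of these genotypes placed the gene models in it. K326 replicate 2 reached 15688 CPM, with the other K326 libraries between 4509 and 6080 CPM. That library was also the deepest, with 71.8 M counts, against 36.1 M to 40.9 M in the other K326 libraries.

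Among these falls, Ntab21g008710-1.1 was at 4.15, 3.32, 7.18 and 2.53 CPM in nic1 nic2 myc2a, against 71.0, 105, 137, 141 and 153 CPM in myc2a. No library of one genotype reached the range of the other. The log2 fold change was -4.82 ± 0.54 (SE; edgeR adjusted p = 0.00011, range 3.16e-18 to 0.00154 over 28 alternatives). The gene model was at 4.83 ± 1.69 CPM in nic1 nic2 (SD, n = 3) and 360 ± 339 CPM in K326 (n = 4).

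Ntab14g009490-1.1 had 2.19, 1.83, 1.59 and 0.302 CPM in nic1 nic2 myc2a and 21.7, 17.9, 44.7, 53.1 and 63.6 CPM in myc2a. Its log2 fold change was -4.76 ± 0.65 (SE; edgeR adjusted p = 0.00131), a call lost in limma-voom (adjusted p = 0.069). Replicate 4 was the lowest nic1 nic2 myc2a library, as it also was for Ntab05g006300-1.1. That gene model was at 0.701, 0.344, 1.14 and 0.0905 CPM in nic1 nic2 myc2a, against 6.97, 8.10, 15.7, 17.0 and 29.0 CPM in myc2a, which is -4.75 ± 0.72 as a log2 fold change (SE; edgeR adjusted p = 0.00404). The call was likewise lost under limma-voom (adjusted p = 0.167).

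The 3 most abundant falls changed less. Ntab06g021890-1.1 had 94.4, 67.9, 76.1 and 52.0 CPM in nic1 nic2 myc2a, against 293, 360, 510, 446 and 428 CPM in myc2a (log2 fold change -2.49 ± 0.28, SE; edgeR adjusted p = 0.000109). Ntab24g000460-1.1 had 96.7, 66.1, 98.9 and 97.2 CPM in nic1 nic2 myc2a, against 319, 456, 479, 415 and 558 CPM in myc2a (-2.31 ± 0.28; edgeR adjusted p = 0.000347). For both the groups were widely separated. Ntab10g002480-1.1, at 357 ± 68.3 CPM in nic1 nic2 myc2a (SD, n = 4) and 793 ± 120 CPM in myc2a (n = 5), was called in edgeR (adjusted p = 0.0216) but not in 6 of 28 alternatives, 5 of them without myc2a replicate 2, 3 or 4 or nic1 nic2 myc2a replicate 2 or 4 (largest adjusted p 0.101).

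**Figure D2:**
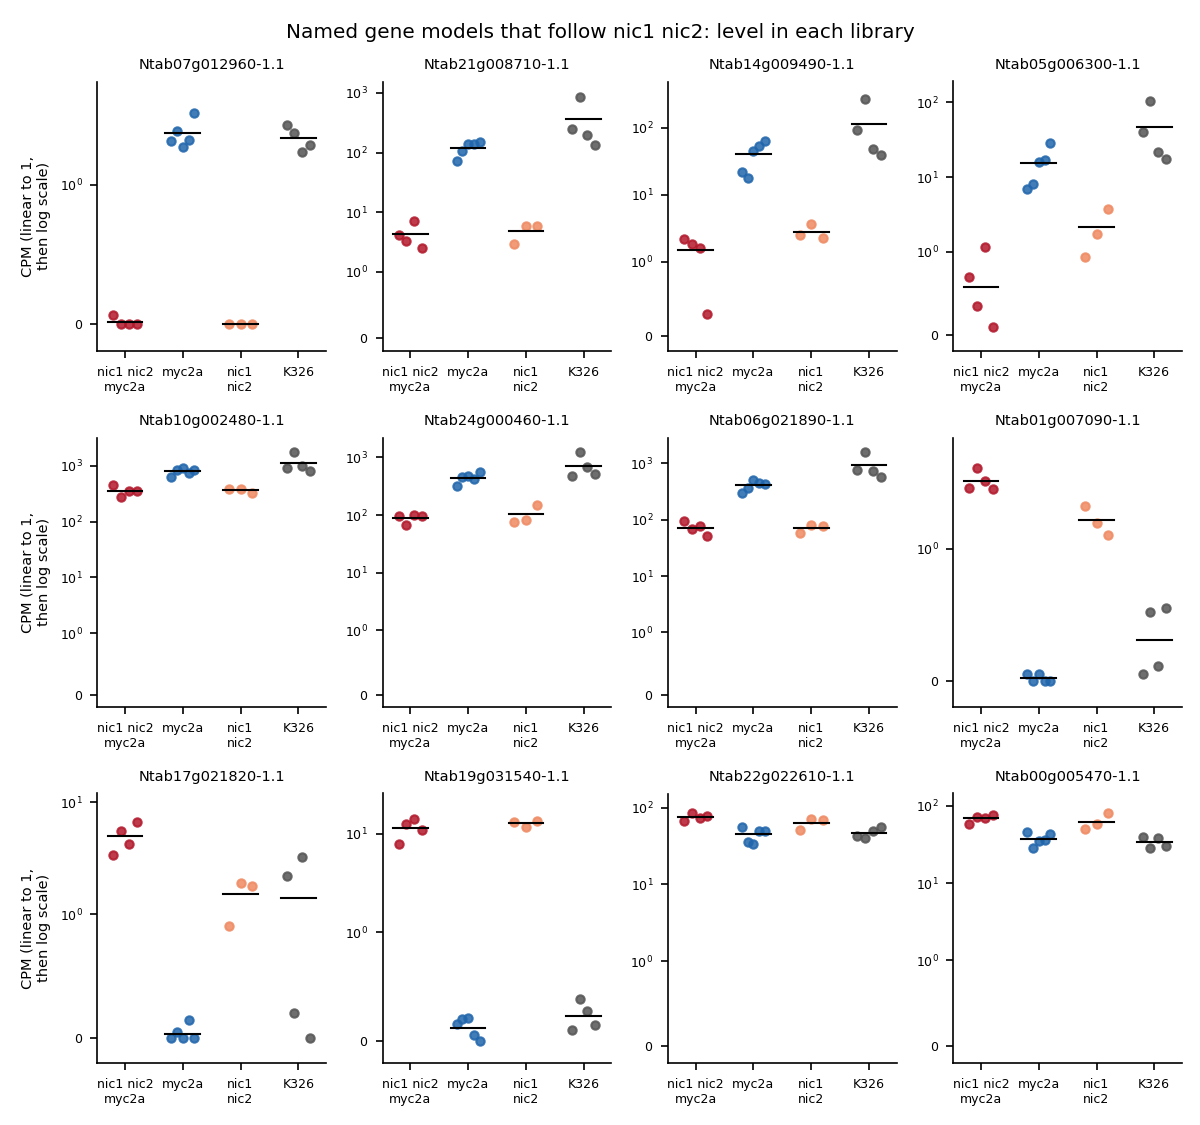
CPM in each library (points) and group mean (bars) of the named gene models that follow nic1 nic2, 7 falls followed by 5 rises. The axis is linear up to 1 CPM and logarithmic above. Each fall is low in nic1 nic2 myc2a and nic1 nic2 and higher in myc2a and K326.

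Several of these falls were neighbours in the serial order. Ntab12g015220-1.1, Ntab12g015230-1.1 and Ntab12g015240-1.1 together had 61.5, 25.1, 46.9 and 18.2 CPM in nic1 nic2 myc2a, against 153, 199, 272, 199 and 265 CPM in myc2a. Ntab16g014290-1.1, Ntab16g014300-1.1 and Ntab16g014330-1.1 together had 44.0, 23.3, 47.0 and 12.8 CPM in nic1 nic2 myc2a, against 158, 187, 274, 270 and 383 CPM in myc2a. In both runs nic1 nic2 myc2a replicate 4 was lowest and the groups did not overlap. The members differed in how firmly they were called in edgeR: Ntab16g014330-1.1 was called under all 28 alternatives, and the others lost the call in 2 to 11 of them, with a largest adjusted p of 0.132. Beside the falling run of ID group 12, Ntab12g015190-1.1 was higher, with means of 10.8 CPM in nic1 nic2 myc2a and 1.49 CPM in myc2a (log2 fold change 2.86 ± 0.28, SE; edgeR adjusted p = 2.15e-05), a gene model chosen after its values were seen. Whether neighbours are near-identical copies that share reads was not analysed here, so the values of single members of a run are uncertain.

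A few low gene models followed nic1 nic2 by being absent. Ntab07g012960-1.1 had 0.0584, 0, 0 and 0 CPM in nic1 nic2 myc2a, against 2.23, 2.68, 2.01, 2.27 and 3.73 CPM in myc2a, and 0 in all 3 nic1 nic2 libraries. Ntab07g012920-1.1, shortly before it in serial order, had no count in any library of either genotype with nic1 nic2 and 1.49 ± 0.637 CPM in myc2a (SD, n = 5), so that nic1 nic2 myc2a was at least 16.8-fold lower. Ntab16g016700-1.1 likewise had none and was at 1.77 ± 0.724 CPM in myc2a, which puts nic1 nic2 myc2a at least 19.9-fold lower. These bounds use 3 counts per library as the limit of detection, and the last 2 gene models, under the level of 2 CPM set for naming, were chosen after their values were seen.

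The rises that follow nic1 nic2 were mostly small, with a median log2 fold change of 0.97 over 20 gene models in 14 ID groups. Ntab19g031540-1.1 was at 7.83, 12.7, 14.3 and 11.1 CPM in nic1 nic2 myc2a, against 0.156, 0.206, 0.217, 0.0583 and 0 CPM in myc2a. Its log2 fold change was 6.45 ± 0.45 (SE; edgeR adjusted p = 1.33e-07, range 1.9e-53 to 7.1e-05), and it was at 12.8 ± 0.986 CPM in nic1 nic2 (SD, n = 3) and 0.233 ± 0.127 CPM in K326 (n = 4). Gene models just after it, Ntab19g031560-1.1 to Ntab19g031580-1.1, went the other way. Their summed level was 145, 82.0, 114 and 115 CPM in nic1 nic2 myc2a, against 194, 271, 230, 214 and 258 CPM in myc2a.

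Ntab01g007090-1.1 rose to 3.27, 4.81, 3.72 and 3.20 CPM in nic1 nic2 myc2a, against 0.0518, 0, 0.0543, 0 and 0 CPM in myc2a (log2 fold change 7.25 ± 0.77, SE; edgeR adjusted p = 6.31e-05). Every myc2a level of this gene model is under that of 3 counts, so the size of its change is uncertain. The nic1 nic2 libraries, at 2.30, 1.65 and 1.32 CPM, lay between, and nic1 nic2 against K326 was not called (edgeR adjusted p = 0.078). Ntab17g021820-1.1 was at 4.95 ± 1.44 CPM in nic1 nic2 myc2a (SD, n = 4) and 0.0395 ± 0.0635 CPM in myc2a (n = 5; edgeR adjusted p = 0.00888), but K326 libraries spread from 0 to 3.22 CPM, so its place in the pattern is loose. Of the 3 most abundant rises, Ntab00g005470-1.1 had 69.2 ± 7.43 CPM in nic1 nic2 myc2a (n = 4) and 37.7 ± 6.56 CPM in myc2a (n = 5; edgeR adjusted p = 0.0192). That call was lost without myc2a replicates 2, 3 or 4 or nic1 nic2 myc2a replicates 2 or 4, with a largest adjusted p of 0.0826. Another, Ntab22g022610-1.1, had 75.5 ± 7.48 CPM in nic1 nic2 myc2a and 44.9 ± 9.63 CPM in myc2a, with an adjusted p of 0.0499 in edgeR. It was above 0.05 in 20 of 28 alternatives, those without any single nic1 nic2 myc2a library or without myc2a replicates 2, 3, 4 or 5 among them. Ntab19g030210-1.1 to Ntab19g030270-1.1 formed a run of 3 called rises among 7 tested gene models, with a summed level of 75 ± 5.02 CPM in nic1 nic2 myc2a (SD, n = 4), 42.3 ± 4.87 CPM in myc2a (n = 5), 66.4 ± 6.13 CPM in nic1 nic2 (n = 3) and 48.6 ± 7.25 CPM in K326 (n = 4). The 3 calls were lost in 8, 10 and 8 of 28 alternatives, with a largest adjusted p of 0.156.

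The same allele difference in the K326 background could be set beside these values because nic1 nic2 and K326 contributed no library to the comparison. Their libraries entered only the choice of gene models tested, the scaling and the common estimate of the spread. Of the 74 falls, 31 (41.9%) were also called lower in nic1 nic2 against K326, where 0.588% of the gene models outside the stretch were called lower. Of the 46 rises, 5 (10.9%) were also called higher, where 0.346% were. The 31 falls were 12.5% of the 248 gene models called lower there, and the 5 rises 3.42% of the 146 called higher. The rises were Ntab19g031540-1.1, Ntab19g031410-1.1, Ntab24g017300-1.1, Ntab00g005470-1.1 and Ntab19g000610-1.1. Of these, Ntab19g031540-1.1 was called in nic1 nic2 myc2a against myc2a under all 28 alternatives, and the others lost that call in 9, 8, 6 and 18 of them, in the order given, with a largest adjusted p of 0.179. In sign alone, 94 of the 120 (78.3%) went the same way, against 58.9% of all gene models tested outside the stretch. Starting from the other list, 161 of the 248 called lower in nic1 nic2 against K326 (64.9%) were also lower in nic1 nic2 myc2a than in myc2a. Of the 146 called higher there, 118 (80.8%) were also higher. None of the 120 was called in the opposite direction by edgeR, DESeq2 or limma-voom, with 3 at an unadjusted p under 0.05 in edgeR.

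For the 31 falls called in both backgrounds, the median log2 fold change was -3.27 for nic1 nic2 myc2a over myc2a and -4.26 for nic1 nic2 over K326. It was the smaller fall in the myc2a background for 29 of the 31. The size of this gap depended on K326 replicate 2: without it the K326-background median was -3.45 and 25 of the 31 fell less in the myc2a background. Tested gene by gene, the interaction of nic1 nic2 with myc2a, called for 0.235% of all gene models, was called for 0 of the 31 in edgeR, in DESeq2 and in limma-voom, with 8, 7 and 3 at an unadjusted p under 0.05. Among the 31, Ntab16g016700-1.1, Ntab07g012920-1.1 and Ntab19g030530-1.1 had no count in either genotype with nic1 nic2. The edgeR SE of their interaction was 564, 1814 and 1120, so it could not be called for them. The comparison of their fall sizes likewise rests on zero counts. Over the 31, the edgeR estimates of the interaction ran from -0.32 to 3.08 on the log2 scale, and the smallest adjusted p was 0.349. The upper end was Ntab19g030590-1.1 (3.08 ± 1.88, SE), with no count in nic1 nic2 and 0.0603 CPM in 1 nic1 nic2 myc2a library. Ntab07g012960-1.1, at 2.34, likewise had 0.0584 CPM in 1 such library. Both levels are under that of 3 counts. The largest fall of the K326 background among those above 100 CPM in myc2a, Ntab08g023550-1.1 (chosen after its values were seen), changed by -4.68 ± 0.56 in the myc2a background and by -6.64 ± 0.70 in the K326 background (SE), with an interaction of 1.96 ± 0.73 (edgeR adjusted p = 0.427).

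**Figure D3:**
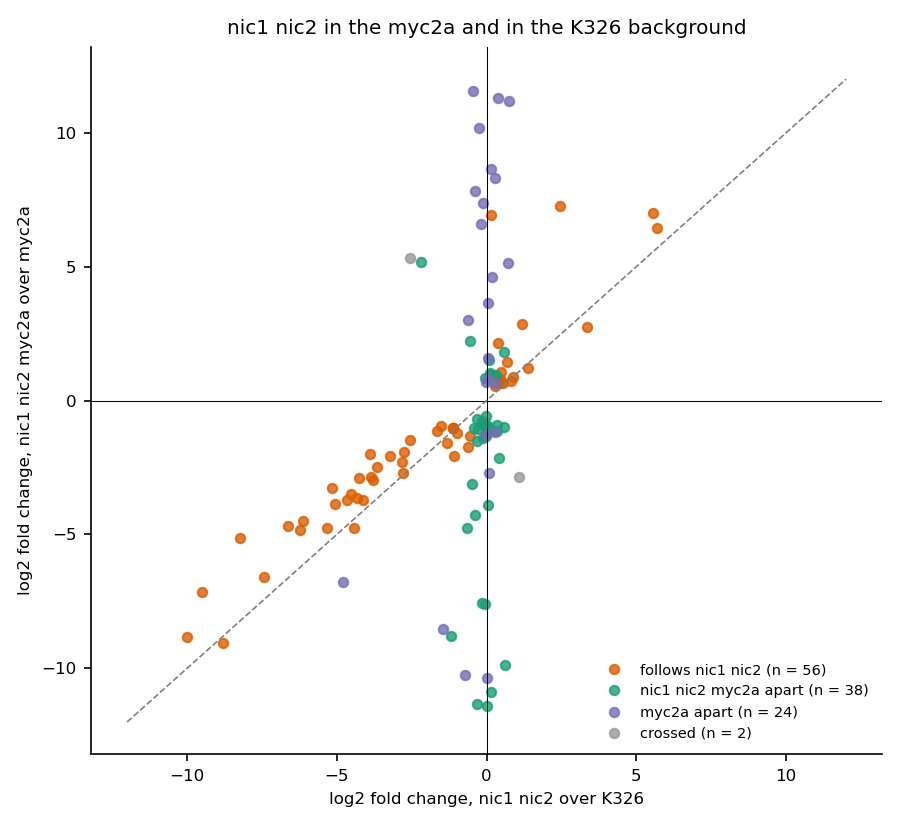
Log2 fold change of nic1 nic2 myc2a over myc2a (vertical axis) against that of nic1 nic2 over K326 (horizontal axis) for the 120 gene models called outside the ID group 11 stretch, coloured by pattern. The dashed line marks equal change. The falls that follow nic1 nic2 lie near the line and mostly above it, and gene models in which nic1 nic2 myc2a or myc2a stands apart lie mostly along the vertical axis.

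Gene models in which myc2a stood apart were led by a run in ID group 8. All 7 tested gene models from Ntab08g028890-1.1 to Ntab08g028950-1.1 were higher in nic1 nic2 myc2a, with a summed level of 123.5, 128.6, 122.5 and 138.5 CPM, against 0.778, 0.361, 0.435, 1.52 and 0.725 CPM in myc2a replicates 1 to 5. The run was at 106 ± 4.23 CPM in nic1 nic2 (SD, n = 3) and 119 ± 2.73 CPM in K326 (n = 4). Its loss in myc2a is thus not shared by the other genotype labelled myc2a. Ntab08g028910-1.1, with no count in any myc2a library, was at 8.65, 13.6, 7.87 and 10.0 CPM in nic1 nic2 myc2a, at least 125-fold higher. Ntab08g028920-1.1 and Ntab08g028900-1.1, also without counts in myc2a, were at least 102-fold and 95-fold higher, at 8.20 ± 1.46 and 7.63 ± 1.12 CPM in nic1 nic2 myc2a (SD, n = 4). The other named members had residual counts in myc2a. Ntab08g028940-1.1 was at 49.1 ± 5.31 CPM in nic1 nic2 myc2a and 0.511 ± 0.499 CPM in myc2a, Ntab08g028930-1.1 at 28.6 ± 5.60 CPM in nic1 nic2 myc2a and 0.0206 ± 0.0462 CPM in myc2a, and Ntab08g028950-1.1 at 21.2 ± 3.28 CPM in nic1 nic2 myc2a and 0.0913 ± 0.0965 CPM in myc2a.

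Outside that run, Ntab05g003880-1.1 was at 27.3, 36.3, 24.6 and 36.3 CPM in nic1 nic2 myc2a, against 0.156, 0.0774, 0.244, 0 and 0 CPM in myc2a (log2 fold change 8.29 ± 0.40, SE; edgeR adjusted p = 1.18e-09). Ntab22g024750-1.1 was at 19.0, 16.2, 17.3 and 20.2 CPM in nic1 nic2 myc2a, against 0, 0, 0.0272, 0.0583 and 0.440 CPM in myc2a (7.37 ± 0.50; edgeR adjusted p = 1.02e-07). In both, nic1 nic2 and K326 were at the nic1 nic2 myc2a side, between 14.4 and 29.3 CPM in every library. Over all patterns, 18 gene models were nearly absent from myc2a (under 0.5 CPM in every library, called and at least 16-fold lower in the fitted change, to which no bound is applied). Outside the stretch of ID group 11 there were 15, of which 10 had myc2a apart.

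Other gene models were present in myc2a and missing elsewhere. Ntab17g006510-1.1 was at 1.94, 3.54, 2.93, 7.15 and 6.29 CPM in myc2a and had no count in any library of nic1 nic2 myc2a, nic1 nic2 or K326, so that nic1 nic2 myc2a was at least 49.4-fold lower. Ntab04g028470-1.1 had no count in nic1 nic2 myc2a and 6.14, 4.77, 2.66, 5.66 and 0.933 CPM in myc2a, and nic1 nic2 and K326 libraries held at most 0.181 CPM. Ntab01g018350-1.1, at 1.20, 0, 0 and 0 CPM in nic1 nic2 myc2a and 47.1, 35.6, 16.9, 17.7 and 48.1 CPM in myc2a (edgeR adjusted p = 0.0333), varied widely in K326 (0 to 8.94 CPM). Its call was lost in 8 of 28 alternatives, among them each that left out myc2a replicate 2, 3, 4 or 5 or nic1 nic2 myc2a replicate 2, 3 or 4, with a largest adjusted p of 0.187.

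Gene models in which nic1 nic2 myc2a stood apart were led by a run in ID group 19. All 7 tested gene models from Ntab19g019530-1.1 to Ntab19g019610-1.1 fell, to a summed level of 7.04, 6.79, 7.69 and 5.88 CPM in nic1 nic2 myc2a, against 190.5, 177, 193, 182 and 181 CPM in myc2a. The level was 178 ± 4.19 CPM in nic1 nic2 (SD, n = 3) and 188 ± 6.95 CPM in K326 (n = 4). The loss was uneven within the run. Ntab19g019570-1.1 (8.76, 8.29, 8.48, 10.1 and 8.57 CPM in myc2a) and Ntab19g019550-1.1 (8.57 ± 2.38 CPM in myc2a) had no count in nic1 nic2 myc2a and were at least 99.8-fold and 96.8-fold lower. Ntab19g019590-1.1 had 0, 0, 0 and 0.121 CPM in nic1 nic2 myc2a, against 30.9 ± 7.37 CPM in myc2a (SD, n = 5). Between them, Ntab19g019580-1.1 kept 4.62, 3.90, 3.60 and 2.56 CPM in nic1 nic2 myc2a, against 68.1, 76.2, 75.6, 70.3 and 67.9 CPM in myc2a (log2 fold change -4.28 ± 0.15, SE; edgeR adjusted p = 2.49e-11).

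Away from this run, Ntab07g010200-1.1 had no count in nic1 nic2 myc2a and 5.16, 4.28, 5.05, 7.32 and 8.83 CPM in myc2a, at least 69.2-fold lower. It was at 6.78 ± 0.646 CPM in nic1 nic2 (SD, n = 3) and 6.06 ± 0.471 CPM in K326 (n = 4). Over all patterns, 16 gene models were nearly absent from nic1 nic2 myc2a, 8 of them with nic1 nic2 myc2a apart. In 11 of the 16 no nic1 nic2 myc2a library held a count. By the bound of 3 counts these were at least 3.57-fold to 99.8-fold lower, so not all are shown to be 16-fold lower. Most of the 30 falls in which nic1 nic2 myc2a stood apart were smaller, with a median log2 fold change of -1.22.

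On the other side, 8 gene models were called higher than in myc2a and had nic1 nic2 myc2a apart by the group means. Ntab17g022270-1.1, the most abundant rise of the comparison, was at 542, 484, 579 and 760 CPM in nic1 nic2 myc2a, against 389, 323, 343, 240 and 237 CPM in myc2a (log2 fold change 0.95 ± 0.17, SE; edgeR adjusted p = 0.0174). The ranges did not overlap, but the call was lost in 4 of 28 alternatives, among them those without myc2a replicate 4 or nic1 nic2 myc2a replicate 4 (largest adjusted p 0.101). Ntab03g030020-1.1 to Ntab03g030050-1.1 was a run of 3 rises, with 60.6, 47.8, 52.9 and 55.1 CPM in nic1 nic2 myc2a, against 33.2, 30.5, 27.4, 29.2 and 26.1 CPM in myc2a. Nic1 nic2 and K326 libraries, at 28.3 to 31.5 CPM, were at the myc2a level. Ntab03g030050-1.1, with 41.6 ± 4.31 CPM in nic1 nic2 myc2a and 23.2 ± 1.67 CPM in myc2a (SD, n = 4 and 5), held most of the sum and was called under all alternatives. Ntab03g030030-1.1 lost its call in 8 of 28, and Ntab03g030020-1.1, at 0.895 CPM on average in nic1 nic2 myc2a, in 17 of the 27 that tested it. Against nic1 nic2, nic1 nic2 myc2a was called higher for Ntab03g030050-1.1 (edgeR adjusted p = 0.00066). It was not for Ntab17g022270-1.1, Ntab03g030030-1.1 or Ntab19g031820-1.1 (edgeR adjusted p = 0.135, 0.230 and 0.191).

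One rise was crossed: Ntab17g011100-1.1 had 9.87, 23.7, 5.83 and 3.68 CPM in nic1 nic2 myc2a and 0.259, 0, 0.598, 0.175 and 0.311 CPM in myc2a (log2 fold change 5.31 ± 0.85, SE; edgeR adjusted p = 0.00703). It was at 0.454, 1.90 and 1.09 CPM in nic1 nic2 and at 2.87, 5.63, 1.13 and 17.4 CPM in K326, so both K326 and nic1 nic2 myc2a spread widely. The call was lost in 2 of 28 alternatives, limma-voom among them, with a largest adjusted p of 0.129.

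**Figure D4:**
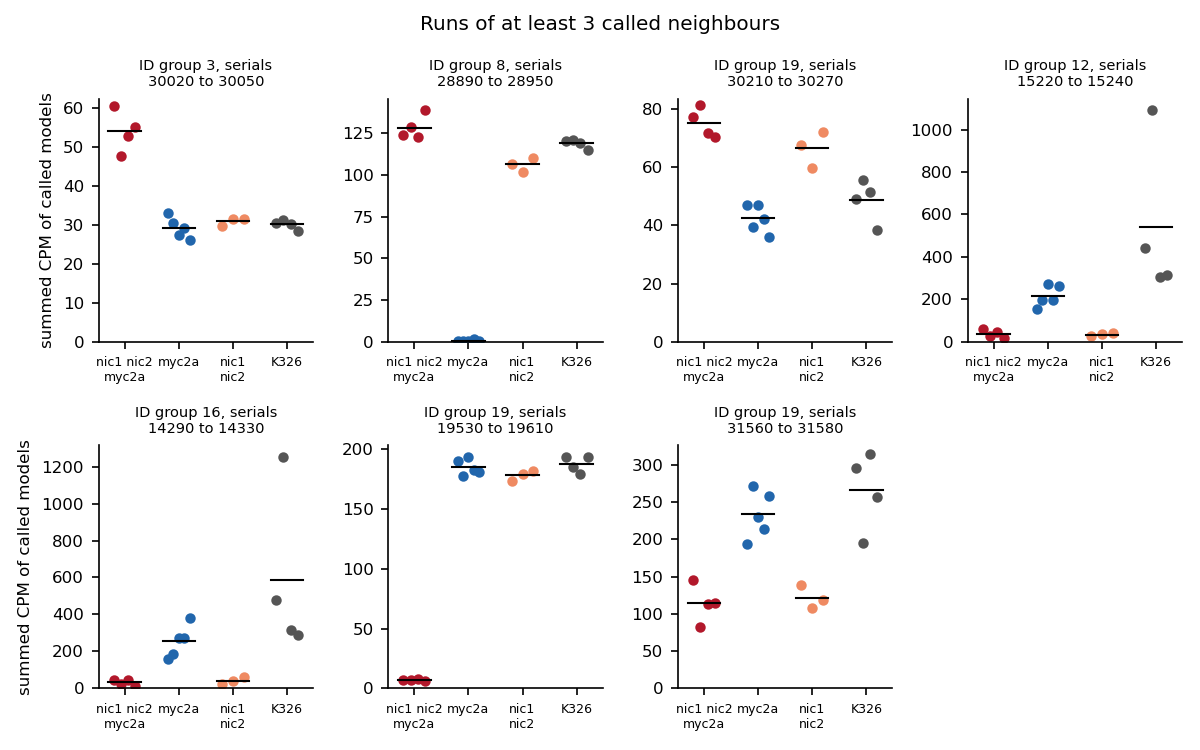
Summed CPM of the called members of each run of at least 3 neighbouring gene models with one direction, in each library (points) with group means (bars), on a linear axis. The first 3 panels are rises and the other 4 falls in nic1 nic2 myc2a against myc2a. The ID group 8 run is missing in myc2a alone and the run of ID group 19, serials 19530 to 19610, is nearly gone in nic1 nic2 myc2a alone.

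By ID group, the calls outside the stretch were most frequent in group 19, with 20 of 2413 tested gene models (0.829%, against 0.285% over all groups). Of these, 7 belonged to the run between 19530 and 19610. No other ID group held more than 8. Median log2 fold changes per ID group outside the stretch lay between -0.03 and 0.01, so no ID group was shifted as a whole there.

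In the stretch of ID group 11, nic1 nic2 myc2a was at the K326 level and above most of the myc2a libraries. Over the 638 gene models whose mean log2 CPM was 1 or more, the median was 101, 99.8, 98.7 and 102% of the K326 mean in nic1 nic2 myc2a replicates 1 to 4, against 99.9, 52.6, 52.6, 53.3 and 54.2% in myc2a replicates 1 to 5. Replicates 2 to 5 of myc2a were low and replicate 1 was not. The stretch was bounded on earlier results of these libraries, so its level is a description and was not tested. The mean log2 difference between nic1 nic2 myc2a and myc2a libraries was 0.73, with a pooled SD of 0.31 over all 9 libraries.

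Against myc2a replicates 2 to 5, the median gene model of the stretch was 0.91 higher in nic1 nic2 myc2a on the log2 scale, with 0.40 at the lower and 1.28 at the upper decile. All 4 nic1 nic2 myc2a libraries exceeded all of these 4 myc2a libraries in 473 of the 638 gene models (74.1%), against 5.43% of such gene models elsewhere. Against myc2a replicate 1 the median difference was -0.01, and all 4 nic1 nic2 myc2a libraries exceeded it in 17.1% of the gene models, against 18.3% elsewhere. The stretch held 1.58, 1.56, 1.58 and 1.61% of all counts in nic1 nic2 myc2a, against 1.63% in myc2a replicate 1 and 0.809 to 0.826% in myc2a replicates 2 to 5.

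The shift had a sharp lower end. The last 20 gene models before the stretch had levels, relative to K326, of 98.9 to 113% in nic1 nic2 myc2a, of 119% in myc2a replicate 1 and of 105 to 117% in myc2a replicates 2 to 5. The first 20 inside were at 84.5 to 99.6% in nic1 nic2 myc2a, at 85.4% in myc2a replicate 1 and at 50.6 to 54.8% in myc2a replicates 2 to 5. The last 20 of the stretch were at 96.5 to 106% in nic1 nic2 myc2a, 101% in myc2a replicate 1 and 53.7 to 55.4% in myc2a replicates 2 to 5, and only 1 tested gene model of ID group 11 follows them. The shift thus reached the end of the ID group in table order, which is not stated to be the order on a chromosome.

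**Figure D5:**
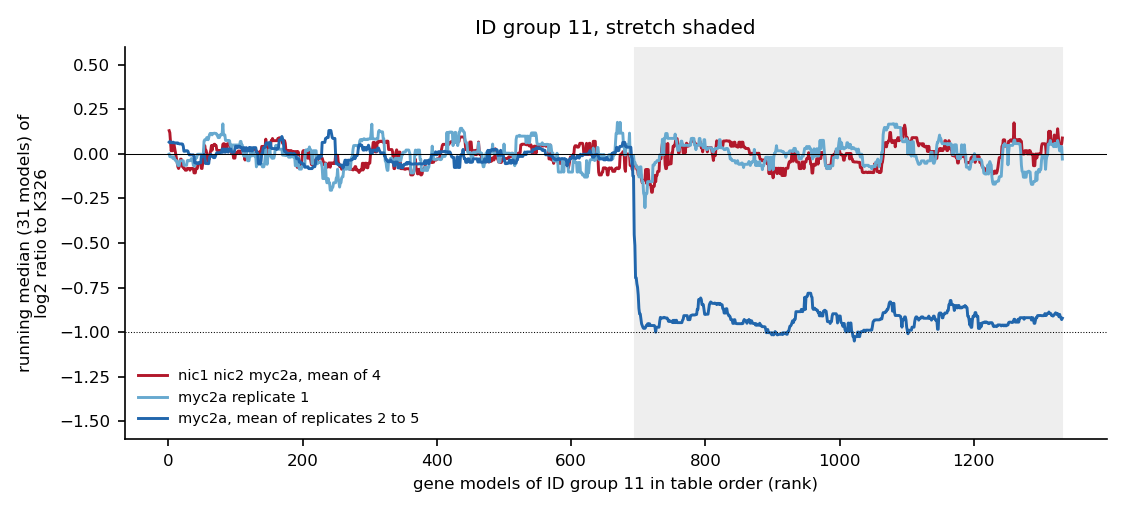
Running median over 31 gene models of the log2 ratio to the K326 mean along ID group 11 in table order, for the mean of the 4 nic1 nic2 myc2a libraries, for myc2a replicate 1 and for the mean of myc2a replicates 2 to 5. The shaded part is the stretch and the dotted line marks 50% of K326. There myc2a replicates 2 to 5 lie near -0.9 and the other lines near 0.

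The number of calls in the stretch depended most on myc2a replicate 1. With it, 33 gene models were called higher in nic1 nic2 myc2a, and without it 425 of the stretch were. Leaving out any other library of either genotype, except nic1 nic2 myc2a replicate 3 (42), gave 5 to 11, and leaving out K326 replicates 1, 2 or 3 or nic1 nic2 replicate 2, which share the estimate of the spread, gave 19 to 21. DESeq2 called 185 and limma-voom, which gives libraries weights, 400. Of the 33 rises, 4 were called under each of the 28 alternatives.

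A few gene models of the stretch did not share its even shift. Ntab11g018170-1.1 was at 8.24, 5.87, 6.31 and 7.45 CPM in nic1 nic2 myc2a and had no count in any myc2a library, replicate 1 included, at least 86.7-fold higher. Ntab11g019640-1.1 was at 9.79, 5.64, 3.33 and 4.37 CPM in nic1 nic2 myc2a and also had no count in myc2a, at least 72-fold higher. Ntab11g018440-1.1 was at 2.28, 2.32, 2.16 and 2.59 CPM in nic1 nic2 myc2a, against 0.0778, 0, 0, 0 and 0 CPM in myc2a. In these 3 gene models, as in the ID group 8 run, myc2a replicate 1 was like the other myc2a libraries, although it lacked the shift of the stretch.

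Ntab11g016490-1.1 was called higher with a log2 fold change at 1.95 ± 0.33 (SE; edgeR adjusted p = 0.0110), with 3.45, 3.69, 2.70 and 2.11 CPM in nic1 nic2 myc2a, against 1.24, 0.955, 0.652, 0.467 and 0.544 CPM in myc2a. The call was lost without nic1 nic2 myc2a replicate 2 and with the 9 libraries alone (largest adjusted p 0.0775). The 1 fall of the stretch was Ntab11g019180-1.1, at 4.29, 1.55, 5.41 and 2.53 CPM in nic1 nic2 myc2a, against 57.4, 21.4, 24.9, 20.3 and 27.6 CPM in myc2a (log2 fold change -3.14 ± 0.45, SE; edgeR adjusted p = 0.00195). Here myc2a replicate 1 was the highest library, and nic1 nic2 and K326 libraries, at 3.18 to 12.7 CPM, were nearer to nic1 nic2 myc2a.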

How the data were processed

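The authors deposited a table of raw counts for 63697 gene models in 16 root libraries, made with a directional kit. The submitters' processing notes name FastQC, HISAT2 2.1.0, SAMtools and bedtools, without roles. Genome build, annotation and counting settings, strand included, are not given in the sources used here, so overlapping, antisense and near-identical gene models cannot be told apart. Of the counts from 1 to under 200, 59.7 to 65.6% were even, so a count may not be a single fragment. Columns were matched to samples by name. For nic1 nic2 myc2a the column names have their letters in another order than the titles. There were 0 unused columns, and 0 identifiers matched the reference table of symbols.

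The deposited counts were fitted in edgeR 4.0.16 (R 4.3.3) after filterByExpr and TMM scaling, by quasi-likelihood with 1 mean per genotype over all 16 libraries and 12 residual degrees of freedom. P-values were adjusted by Benjamini-Hochberg over 43009 gene models, with a threshold of 0.05. The fit was tested on counts simulated with edgeR's own dispersion estimates and no deviating library, which says nothing on the effect of single libraries. Standard errors are the fold change over the root of the F statistic. Named gene models were called, reached 2 CPM on average in one genotype and did not overlap: the 12 largest rises and falls and the 3 most abundant of each outside the stretch, and up to 4 of each inside it. Runs of at least 3 called neighbours, at most 100 serials apart, are also described. Patterns were separated at 0.5 of the log2 distance between both genotypes (prior count 2). Stretch ratios used CPM + 0.5. Bounds use 3 counts per library and cover counting error only. Members, stretch, lists and rules were chosen with earlier results of these data known. Alternatives were DESeq2 1.42.0, limma 3.58.1 (voom with sample quality weights), other scalings and filters, halved counts, a replicate block, the 9 libraries alone and leaving out each library.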

Additional observations from a re-analysis of the deposited data

Results flagged for a closer look

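In the stretch of ID group 11, myc2a replicate 1 lay far from the other myc2a libraries, at 99.94% of the K326 level. For the summed level of the falls that follow nic1 nic2, K326 replicate 2 lay apart from the other K326 libraries, at 15690 CPM. Single libraries also lay apart in Ntab11g019180-1.1 (myc2a replicate 1, 57.41 CPM), Ntab19g019570-1.1 (myc2a replicate 4, 10.09 CPM), Ntab24g000460-1.1 (nic1 nic2 myc2a replicate 2, 66.13 CPM), Ntab08g028930-1.1 (nic1 nic2 myc2a replicate 1, 37.01 CPM) and Ntab08g028900-1.1 (nic1 nic2 myc2a replicate 1, 5.959 CPM). Of 49 groups tested in this way 7 were past Dixon's limit, and chance gives about 1 in 20.

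The difference that goes with nic1 nic2 was not the same in the myc2a and the K326 background for 19 of the 35 named gene models, by edgeR's test of the interaction, which was called for 0.235% of all 43009 gene models. The 35 were named for their large or abundant difference between nic1 nic2 myc2a and myc2a, which is a part of the interaction itself, so the naming raises this count. In the ID group 8 run the adjusted p was 7.31e-07 for Ntab08g028910-1.1, 1.51e-07 for Ntab08g028920-1.1, 4.90e-07 for Ntab08g028900-1.1, 3.70e-09 for Ntab08g028930-1.1, 2.67e-08 for Ntab08g028950-1.1 and 3.88e-06 for Ntab08g028940-1.1. In the ID group 19 run it was 3.70e-09 for Ntab19g019570-1.1, 1.38e-06 for Ntab19g019550-1.1, 1.06e-08 for Ntab19g019590-1.1 and 4.25e-07 for Ntab19g019610-1.1. In the stretch it was 9.67e-05 for Ntab11g018170-1.1, 9.67e-05 for Ntab11g019640-1.1, 0.000754 for Ntab11g018440-1.1 and 0.0151 for Ntab11g019180-1.1. Elsewhere it was 1.25e-07 for Ntab05g003880-1.1, 5.68e-06 for Ntab22g024750-1.1, 0.00788 for Ntab17g011100-1.1, 1.51e-07 for Ntab07g010200-1.1 and 0.0255 for Ntab04g028470-1.1. In each of these except Ntab17g011100-1.1, either myc2a or nic1 nic2 myc2a stood apart from the other genotypes, and whether this goes with the alleles or with the single line cannot be told apart.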

How the results depend on the processing

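Among the named gene models, 928 of 980 combinations of 35 gene models and 28 alternatives kept the call and its direction, 52 lost the call and 0 reversed. The 35 were named as large or abundant calls without overlap in the main fit, so the naming raises the 928. Of all calls, 18 of 46 rises and 24 of 74 falls outside the stretch and 4 of 33 rises in it were never lost. The counts of calls moved far more. Called in all, outside the stretch higher, outside it lower and in the stretch higher, DESeq2 gave 775, 213, 375 and 185, limma-voom with sample quality weights 1220, 470, 349 and 400, and the 9 libraries alone 75, 26, 44 and 4. Leaving out 1 library gave 70 to 1132, 24 to 280, 33 to 426 and 5 to 425. Removing myc2a replicates 1 and 5 together, an alternative chosen after seeing the data, gave 883, 227, 245 and 410. The interaction was called for 101 gene models, for 311 by DESeq2, for 173 by limma-voom, for 76 to 344 without 1 library, for 353 without myc2a replicates 1 and 5 and for 53 without K326 replicate 2 and nic1 nic2 replicate 3, also chosen after seeing the data. The share of called gene models outside the stretch with the same sign in nic1 nic2 against K326 was 78.3%, and 69.8 to 83.8% without 1 library. The cause of these changes was not tested. Other scalings, filters and halved counts kept the counts within 1.5 times, and the mean difference in the stretch stayed between 0.63 and 0.92 in every alternative run.

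With the replicate block, 73 gene models were called, 23 higher and 39 lower outside the stretch and 10 higher in it. Ntab17g021820-1.1 and Ntab17g006510-1.1 were among the calls lost (edgeR adjusted p = 0.0821 and 0.0522). Deviations of same-numbered nic1 nic2 myc2a and myc2a libraries correlated at -0.109, -0.17, 0.178 and 0.0721, and 1 of 4 numbers correlated best with its own. With only 4 numbers, these values cannot tell whether the replicate numbers pair the libraries.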
